A study of Homo sapiens with 12 samples.

Results

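Extracellular vesicles shed by the cell line Car-1 were compared with vesicles of the lines MDST8 and Hutu80 by counting mature microRNAs (miRNAs) in small RNA libraries. The comparison used 6 of the 12 libraries of the series, chosen by the line named in their labels, with 2 libraries for each of the 3 lines. Car-1, MDST8 and Hutu80 are established human lines that the labels class as colorectal cancer. By general knowledge Car-1 came from a rectal adenocarcinoma, MDST8 from a colon carcinoma and Hutu80 from a duodenal adenocarcinoma. No genotype, treatment or time distinguishes the groups in the labels, and all shared 1 culture medium, DMEM/F12 with bovine serum and antibiotics. Ultrafiltration and then size-exclusion chromatography gave the vesicles, a serum and plasma kit gave their RNA, and the IsoSeek protocol for scarce small RNA, which tags molecules with unique identifiers, gave the libraries. The series was designed around the colorectal cancer subtypes CMS2 and CMS4, but the labels used here do not tie any line to a subtype, so no subtype is given to Car-1, MDST8 or Hutu80.

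A miRNA is a short RNA that guides Argonaute proteins to messenger RNAs, mainly by pairing through its seed, bases 2 to 8 from its 5′ end. Hairpin precursors give a 5p and a 3p arm, and neighbouring hairpins are often cut from 1 transcript. Tumour cells release miRNAs in vesicles, so the vesicle content follows the cell of origin in part and is studied as a marker in blood. The miRNAs of the miR-200 family repress the transcription factors ZEB1 and ZEB2 and are known for keeping epithelial cells epithelial, whereas miR-205 is known from basal and squamous epithelium.

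The mature sequences on which the comparison turned are printed from RefSeq (GRCh38.p14), which matched 286 of the 318 miRNAs tested. Capitals mark the seed. The miRNAs higher in Car-1 vesicles included 7 of the miR-200 family with 3 seeds, and each of the 3 seeds belonged to called miRNAs of that family alone. The seed AAUACUG was held by 3 tested miRNAs.
miR-200b-3p: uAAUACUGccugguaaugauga
miR-200c-3p: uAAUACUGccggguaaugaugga
miR-429: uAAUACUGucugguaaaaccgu
The seed AACACUG was held by 2 tested miRNAs.
miR-200a-3p: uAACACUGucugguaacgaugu
miR-141-3p: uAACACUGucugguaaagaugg
The seed AUCUUAC was held by the 5p arms of the hairpins of miR-200a and miR-200b.
miR-200a-5p: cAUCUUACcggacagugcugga
miR-200b-5p: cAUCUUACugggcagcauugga
The remaining sequences shown for higher miRNAs are examples of those described individually, and none of them shared a seed with another called miRNA.
miR-205-5p: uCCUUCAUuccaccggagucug
miR-934: uGUCUACUacuggagacacugg
miR-345-3p: gCCCUGAAcgaggggucuggag
miR-23b-3p: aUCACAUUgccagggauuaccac
miR-27b-3p: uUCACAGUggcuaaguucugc

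Among miRNAs lower in Car-1 vesicles, the miR-30 family gave 5 members with 2 seeds. The tested miR-30b-5p, miR-30d-5p and miR-30d-3p of the same family had no matched sequence and were not called lower against the mean. Among the matched miRNAs, the seed GUAAACA was held by 3 and UUUCAGU by 2, and all 5 were called lower.
miR-30a-5p: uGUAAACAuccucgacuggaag
miR-30c-5p: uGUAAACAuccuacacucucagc
miR-30e-5p: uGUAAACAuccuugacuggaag
miR-30a-3p: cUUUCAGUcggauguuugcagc
miR-30e-3p: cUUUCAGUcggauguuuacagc
The other sequences shown are those of lower miRNAs described individually.
miR-137-3p: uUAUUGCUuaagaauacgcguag
miR-31-5p: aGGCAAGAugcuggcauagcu
miR-182-5p: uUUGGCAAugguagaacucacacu
let-7c-5p: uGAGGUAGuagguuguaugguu
miR-146a-5p: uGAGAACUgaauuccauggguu

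The last set differed between the 2 Car-1 libraries, except miR-363-5p, the other arm of the miR-363 hairpin, and miR-100-5p, which has the seed of miR-99a-5p.
miR-106a-5p: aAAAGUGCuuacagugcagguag
miR-20b-5p: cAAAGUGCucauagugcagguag
miR-363-3p: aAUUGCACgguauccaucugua
miR-363-5p: cGGGUGGAucacgaugcaauuu
miR-99a-5p: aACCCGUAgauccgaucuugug
miR-100-5p: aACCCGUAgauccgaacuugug

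The Car-1 libraries held 172774 and 137766 counts, the MDST8 libraries 339853 and 306811, and the Hutu80 libraries 71831 and 100531. Levels are given as scaled CPM, where CPM is a count brought to a common library total and the total is multiplied by its TMM factor, the edgeR scaling that takes most miRNAs as unchanged. The factors were 1.43 and 1.46 in Car-1, 0.930 and 1.04 in MDST8, and 1.28 and 1.19 in Hutu80. Of 1636 miRNAs in the table, 683 had a count in each Car-1 library, against 528 and 534 in MDST8 and 450 and 509 in Hutu80. Counting noise did not account for the distance between the 2 libraries of any line (chi-square divided by its degrees of freedom 51.2 in Car-1, 25.9 in MDST8 and 8.1 in Hutu80), so none was a repeat deposit of another. Nothing in the labels says that replicates were grown separately, and the p-values therefore measure a spread between libraries that may be technical alone.

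Among the miRNAs higher in Car-1 vesicles than in the mean of MDST8 and Hutu80 vesicles were all 7 tested members of the miR-200 family and miR-205-5p, and among those lower were 5 of the miR-30 family, miR-182-5p, miR-183-5p, miR-137-3p and miR-31-5p. With edgeR's quasi-likelihood test at an adjusted p below 0.05, 44 of the 318 tested miRNAs were higher in Car-1 (13.8%) and 37 were lower (11.6%). The median log2 difference over all tested miRNAs was 0.11. When libraries were scaled by their totals alone, the median was 0.50 and the split was 77 higher and 24 lower, so the balance of directions depended on the scaling. Without any filter on low counts, 60 were higher and 23 lower.

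**Figure D1:**
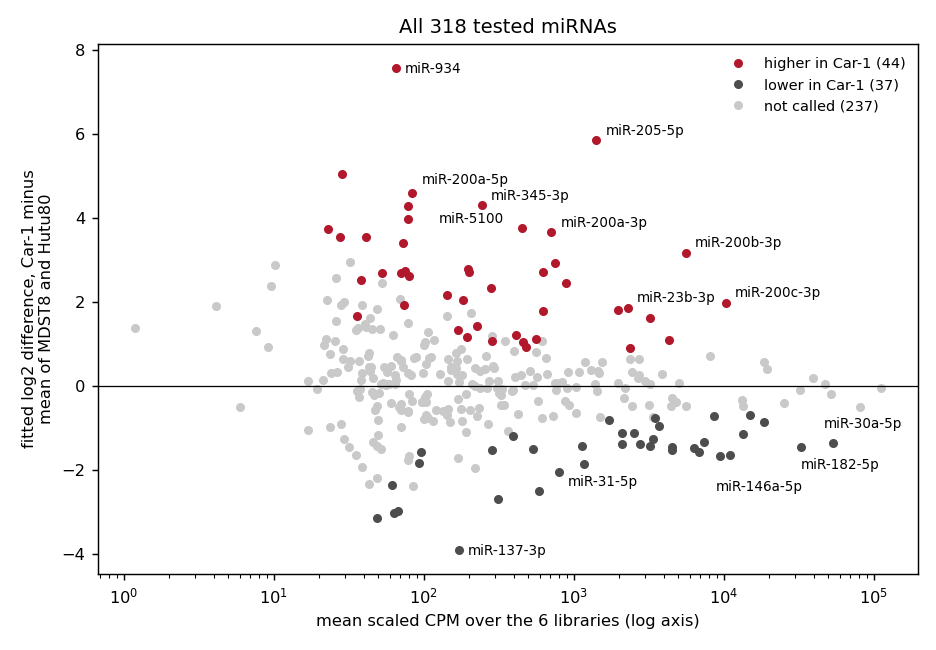
Fitted log2 difference of Car-1 minus the mean of MDST8 and Hutu80 (vertical axis) against the mean scaled CPM over the 6 libraries (horizontal, log axis) for all 318 tested miRNAs, 1 point each. The 44 red points were higher in Car-1 and the 37 dark points lower at an adjusted p below 0.05, with miR-205-5p and miR-200b-3p high at large levels and miR-137-3p at the bottom.

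The position of the libraries was counted apart from the test. Both Car-1 libraries lay above all 4 libraries of MDST8 and Hutu80 for 46 tested miRNAs (14.5%) and below all 4 for 39 (12.3%). They lay between the libraries of the 2 lines for 49 and overlapped with at least 1 line for 184. Of the 44 higher miRNAs, 30 lay above all 4 libraries, 3 between the lines and 11 overlapped. Of the 37 lower miRNAs, 26 lay below all 4, 5 between the lines and 6 overlapped. A call against the mean of the lines was thus not always a difference from both. Over the 318 tested miRNAs, Spearman's rho between a Car-1 and a Hutu80 library was 0.825 to 0.871, and between a Car-1 and an MDST8 library 0.722 to 0.739.

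The lines were also taken one at a time. Against MDST8 alone, 71 miRNAs were higher in Car-1 (22.3%) and 61 lower (19.2%). Against Hutu80 alone, 27 were higher (8.49%) and 31 lower (9.75%). All 3 comparisons share the Car-1 libraries. Of the 44 higher miRNAs, 40 were also called higher against MDST8 alone and 19 against Hutu80 alone, and of the 37 lower, 30 and 21. The count of 71 was 47 without Car-1 replicate 1 and 48 without Car-1 replicate 2. The count of 31 was 19 without Car-1 replicate 1, 16 without Car-1 replicate 2, 20 without Hutu80 replicate 1 and 19 without Hutu80 replicate 2.

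Every tested member of the miR-200 family was higher in Car-1 vesicles, 7 of 7, with a median log2 difference of 3.17 against 0.11 over all tested miRNAs. All 7 were also higher against MDST8 alone and 6 against Hutu80 alone. Over all tested miRNAs, 13.8% were higher than the mean, 22.3% higher than MDST8 and 8.49% higher than Hutu80. Together the family took 4.36% and 6.16% of the counts of the Car-1 libraries, against 0.520% and 0.424% in MDST8 and 1.33% and 1.09% in Hutu80. Both arms of miR-200a and of miR-200b, and miR-429, come from a cluster on chromosome 1, where the hairpin of miR-200b spans chr1:1167104-1167198 and that of miR-429 chr1:1169005-1169087, on the plus strand and outside any other annotated gene. The hairpins of miR-200c (chr12:6963699-6963766) and miR-141 (chr12:6964097-6964191) lie in an intron of the long non-coding RNA gene MIR200CHG on the plus strand.

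miR-200b-3p had 13020 and 14043 scaled CPM in Car-1, 1197 and 839 in MDST8 and 2146 and 2291 in Hutu80. The Car-1 libraries stood close together and far above the other 4, and the log2 difference was 3.17 ± 0.24 (SE, adjusted p = 4.06e-10). miR-200a-3p had 2575 and 1099 scaled CPM in Car-1, 133 and 110 in MDST8 and 174 and 176 in Hutu80. Its log2 difference was 3.66 ± 0.32 (SE, adjusted p = 3.15e-09), although the Car-1 libraries were further apart than those of either other line. miR-429 had 234 and 134 scaled CPM in Car-1, 6.33 and 18.8 in MDST8 and 10.9 and 33.4 in Hutu80, with a log2 difference of 3.40 ± 0.51 (SE, adjusted p = 2.45e-05).

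The 5p arms of this cluster were scarcer and went the same way. miR-200a-5p had 263 and 199 scaled CPM in Car-1, 15.8 and 18.8 in MDST8 and 0 and 8.36 in Hutu80, a log2 difference of 4.59 ± 0.60 (SE, adjusted p = 4.68e-06). miR-200b-5p had 263 and 651 scaled CPM in Car-1, 76.0 and 34.4 in MDST8 and 65.4 and 92.0 in Hutu80, a log2 difference of 2.77 ± 0.40 (SE, adjusted p = 1.72e-05). The groups did not overlap for either arm. On chromosome 12, miR-200c-3p was the most abundant member in Car-1, with 14015 and 26066 scaled CPM, against 4141 and 3046 in MDST8 and 7995 and 6530 in Hutu80. Its log2 difference of 1.97 ± 0.26 (SE, adjusted p = 4.68e-06) was below the family's median. miR-141-3p from the neighbouring hairpin had 97.0 and 34.8 scaled CPM in Car-1, 22.2 and 9.39 in MDST8 and 10.9 and 41.8 in Hutu80, so Car-1 and Hutu80 overlapped. Its log2 difference of 1.66 ± 0.59 (SE, adjusted p = 0.0413) was lost in 5 of 15 settings, among them DESeq2, limma-voom and the fit without Car-1 replicate 1 (adjusted p = 0.0688, 0.118 and 0.606), so that DESeq2 and limma-voom each called 6 of the 7 members.

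**Figure D2:**
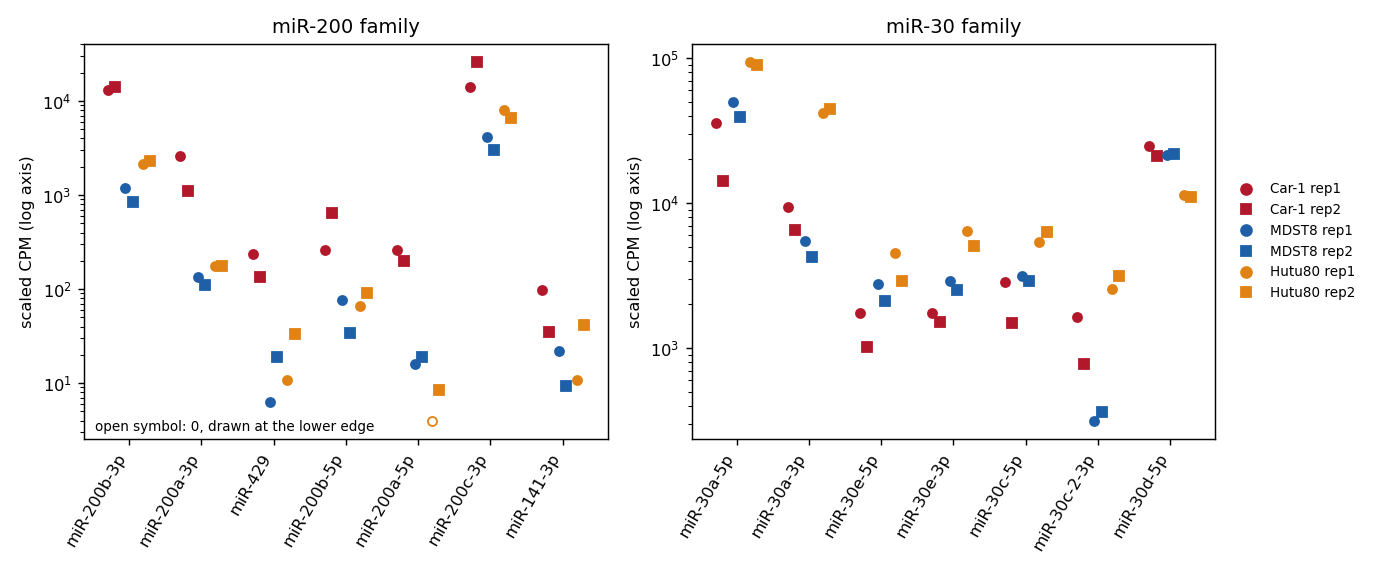
Scaled CPM (log axis) of the 7 tested miRNAs of the miR-200 family and of 7 of the 9 tested miRNAs of the miR-30 family in each library, with Car-1, MDST8 and Hutu80 side by side and replicate 1 as circles and replicate 2 as squares. All Car-1 points of the miR-200 family lie above the other 4, except the replicate 2 point of miR-141-3p. By contrast, miR-30a-5p, miR-30e-5p, miR-30e-3p and miR-30c-5p have Car-1 below the other lines and miR-30d-5p does not.

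miR-205-5p, the miRNA of basal and squamous epithelium, gave the smallest adjusted p of the comparison. It had 5473 and 2700 scaled CPM in Car-1, 50.7 and 31.3 in MDST8 and 120 and 125 in Hutu80. Car-1 averaged 4087 ± 1961, MDST8 41.0 ± 13.7 and Hutu80 123 ± 3.97 (SD, n = 2 each), so both Car-1 libraries were far above the rest while differing from each other by 2.03-fold. The log2 difference was 5.84 ± 0.36 (SE, adjusted p = 8.45e-12), and it was 6.63 ± 0.50 against MDST8 and 5.05 ± 0.48 against Hutu80. Its hairpin lies at chr1:209432133-209432242 in an exon of the non-coding host gene MIR205HG. The other arm, miR-205-3p, had 6 counts in Car-1 replicate 1 and 0 in the other 5 libraries.

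The 2 remaining tested markers of squamous and basal epithelium were unlike miR-205-5p in size. miR-203a-3p, known for promoting differentiation of the epidermis, had 618 and 691 scaled CPM in Car-1, 269 and 172 in MDST8 and 327 and 393 in Hutu80. Car-1 lay above the other 4 libraries with a log2 difference of 1.21 ± 0.27 (SE, adjusted p = 0.00115). Against Hutu80 alone miR-203a-3p was not called (log2 difference 0.86 ± 0.33 SE, adjusted p = 0.0774). miR-203b-3p had 0 and 9.95 scaled CPM in Car-1, 3.17 and 6.26 in MDST8 and 0 and 16.7 in Hutu80, too few counts to show a difference. miR-944, also on the list, had 1 count in Car-1 replicate 1 and 0 elsewhere. Of the 3 tested, 2 were higher and 0 lower, too few to set against the 13.8% higher over all tested miRNAs. Their median log2 difference was 1.21. The summed level of the list was 6120 and 3401 scaled CPM in Car-1, 323 and 210 in MDST8 and 447 and 535 in Hutu80.

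Among the 6 libraries miR-934 was counted almost only in Car-1, with 90 counts in the Car-1 libraries together and 1 in the other 4. This was 247 and 144 scaled CPM in Car-1, 0 and 3.13 in MDST8 and 0 and 0 in Hutu80, where a count of 0 allows up to 9.50 scaled CPM in MDST8 replicate 1 and 32.7 and 25.1 in Hutu80 (3 counts per library). The pooled ratio of Car-1 to the other 4 libraries was 170, with an exact 95% interval of 29.7 to 6785 that covers counting error only. The adjusted p was 0.000153 with edgeR, whereas the size of its fitted difference depends on the prior count. The 6 libraries of the 3 lines outside the comparison had between 0 and 46.8 scaled CPM. The hairpin of miR-934 lies in an intron of VGLL1 on chromosome X (chrX:136550878-136550960, plus strand).

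**Figure D3:**
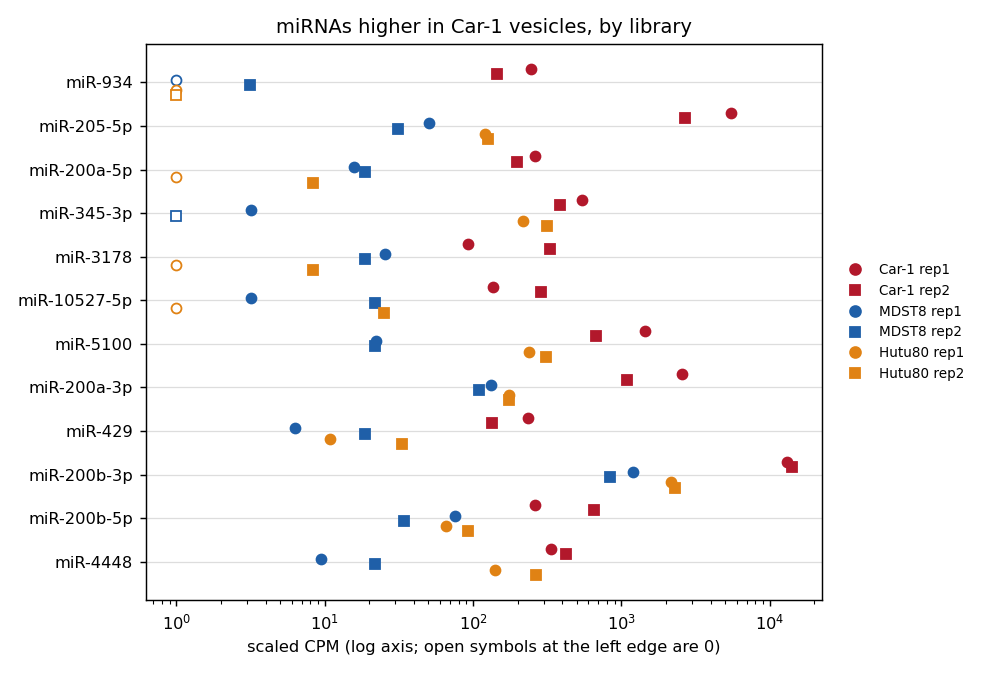
Scaled CPM (horizontal, log axis) in each library for the 12 miRNAs with the largest difference among those higher in Car-1 vesicles, with at least 100 scaled CPM in Car-1 and no overlap with the other lines. Circles are replicate 1, squares replicate 2 and open symbols libraries with 0 counts. Both Car-1 points lie to the right in every row, by little in miR-345-3p and miR-4448, where Hutu80 is next to Car-1.

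The other miRNAs with large differences fell into those set apart from both lines and those set apart from MDST8 alone. miR-5100 had 1447 and 671 scaled CPM in Car-1, 22.2 and 21.9 in MDST8 and 240 and 309 in Hutu80, and it was called higher against the mean (log2 difference 3.75 ± 0.56 SE, adjusted p = 3.64e-05) and against each line. miR-10527-5p had 137 and 288 scaled CPM in Car-1, 3.17 and 21.9 in MDST8 and 0 and 25.1 in Hutu80, a log2 difference of 3.96 ± 0.86 (SE, adjusted p = 0.0011). Its locus overlaps an exon of the pseudogene PABPC1P4, so its reads may be shared. miR-3178 had 93.0 and 328 scaled CPM in Car-1, 25.3 and 18.8 in MDST8 and 0 and 8.36 in Hutu80. Its log2 difference of 4.28 ± 0.76 (SE, adjusted p = 0.000152) was lost without Car-1 replicate 2, with an adjusted p of 0.0533.

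miR-345-3p and miR-4448 separated Car-1 from MDST8 but not from Hutu80 in the test. miR-345-3p had 542 and 388 scaled CPM in Car-1, 3.17 and 0 in MDST8 and 218 and 318 in Hutu80. Its log2 difference was 4.30 ± 0.59 against the mean and 0.79 ± 0.56 against Hutu80 alone (SE, adjusted p = 8.48e-06 and 0.429). miR-4448 had 336 and 423 scaled CPM in Car-1, 9.50 and 21.9 in MDST8 and 142 and 268 in Hutu80, with log2 differences of 2.71 ± 0.56 and 0.87 ± 0.64 (SE, adjusted p = 0.00062 and 0.44). In both, the Car-1 and Hutu80 libraries did not overlap, but the gap was small beside that to MDST8.

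Several further calls rested on low levels in MDST8 in the same way; these were singled out after their values were seen. miR-92a-2-5p had 1047 and 990 scaled CPM in Car-1, 9.50 and 18.8 in MDST8 and 773 and 1664 in Hutu80. miR-365a-5p had 962 and 870 scaled CPM in Car-1, 19.0 and 12.5 in MDST8 and 1656 and 1840 in Hutu80. miR-4443 had 1035 and 806 in Car-1, 15.8 and 25 in MDST8 and 425 and 1447 in Hutu80. None of the 3 was called different from Hutu80, and Car-1 lay within or below the Hutu80 range. miR-92a-1-5p went further, with 2045 and 3013 scaled CPM in Car-1, 133 and 56.3 in MDST8 and 4302 and 9892 in Hutu80. Its log2 difference was 1.62 ± 0.32 against the mean, 4.74 ± 0.45 against MDST8 and -1.49 ± 0.38 against Hutu80 (SE, adjusted p = 0.00557 against Hutu80). It was the only one of the 81 called miRNAs with an opposite call against 1 line.

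The chromosome 9 copies of the miR-23, miR-27 and miR-24 genes gave a pair that was higher in Car-1 than in both lines. miR-23b-3p had 3630 and 5211 scaled CPM in Car-1, 1190 and 1061 in MDST8 and 1111 and 1530 in Hutu80, a log2 difference of 1.86 ± 0.25 (SE, adjusted p = 4.68e-06). miR-27b-3p had 4798 and 2685 scaled CPM in Car-1, 1263 and 905 in MDST8 and 1133 and 1028 in Hutu80, a log2 difference of 1.79 ± 0.28 (SE, adjusted p = 2.85e-05). The difference of miR-27b-3p was 1.79 against each line as well. Their hairpins lie at chr9:95085208-95085304 and chr9:95085445-95085541 on the plus strand, in an intron of C9orf3.

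The chromosome 19 paralog did not follow. miR-23a-3p, which shares its seed with miR-23b-3p, had 4495 and 4053 scaled CPM in Car-1, 7883 and 8894 in MDST8 and 3605 and 4808 in Hutu80 (log2 difference -0.47 ± 0.23 SE, adjusted p = 0.137). miR-27a-3p had a log2 difference of 0.34 (adjusted p = 0.48) and miR-24-3p, which both loci encode, one of 0.36 ± 0.28 (SE, adjusted p = 0.373). Of the 8 tested miRNAs of both loci, 2 were higher and 0 lower, beside 13.8% and 11.6% over all tested miRNAs. Their median was 1.57. Reads of miR-23a and miR-23b are close in sequence, and how the counting split them is not given in the sources used here.

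Other miRNAs higher in Car-1 than in each line were named after their values were seen. miR-574-5p had 1031 and 1343 scaled CPM in Car-1, 383 and 319 in MDST8 and 338 and 351 in Hutu80, a log2 difference of 1.77 ± 0.28 (SE, adjusted p = 3.6e-05), and its hairpin lies in an intron of FAM114A1. miR-135b-5p, often raised in colorectal tumours, had 251 and 94.5 scaled CPM in Car-1, 85.5 and 25 in MDST8 and 10.9 and 16.7 in Hutu80. miR-760 had 109 and 209 in Car-1, 44.3 and 37.6 in MDST8 and 10.9 and 16.7 in Hutu80. For both, the log2 difference was above 2.6, at 2.61 ± 0.62 for miR-135b-5p and 2.69 ± 0.64 for miR-760. Each of these 2 calls was lost without 1 Car-1 library, miR-135b-5p without replicate 1 (adjusted p = 0.147) and miR-760 without replicate 2 (adjusted p = 0.114). The 14 higher calls not described were miR-10397-5p, miR-1307-3p, miR-130b-5p, miR-149-3p, miR-181a-2-3p, miR-197-3p, miR-216b-5p, miR-217-5p, miR-3065-5p, miR-4454, miR-6892-5p, miR-744-5p, miR-92b-3p and miR-92b-5p. Their fitted log2 differences ran from 0.89 in miR-92b-3p to 5.05 in miR-10397-5p. miR-10397-5p, miR-149-3p, miR-217-5p and miR-6892-5p had 0 counts in both MDST8 libraries, so that these 4 sizes lean on the prior count. Of the 14, miR-181a-2-3p lay between the lines. miR-1307-3p, miR-149-3p, miR-216b-5p, miR-217-5p, miR-4454 and miR-92b-5p overlapped with at least 1 line. The call of miR-4454 was lost in 8 of 16 settings. Those of miR-130b-5p, miR-197-3p, miR-149-3p, miR-217-5p and miR-6892-5p were lost in 7 of 13 to 16. The calls of miR-10397-5p, miR-1307-3p and miR-92b-5p were kept throughout.

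Markers of the gut lining were measurable in Car-1 vesicles. Of the 5 tested gut epithelial miRNAs, 1 was higher and 0 lower, too few to set against the 13.8% and 11.6% over all tested miRNAs, with a median log2 difference of 0.34. That one was miR-375-3p, a miRNA of secretory and endocrine epithelium, with 594 and 751 scaled CPM in Car-1, 253 and 185 in MDST8 and 392 and 569 in Hutu80, and a log2 difference of 1.05 ± 0.26 (SE, adjusted p = 0.00385). The call was lost without Car-1 replicate 2 (adjusted p = 0.171). miR-192-5p, the leading gut marker, had 910 and 1174 scaled CPM in Car-1, 719 and 501 in MDST8 and 1220 and 1020 in Hutu80, and its Car-1 libraries overlapped those of Hutu80. miR-215-5p was scarce, with 8.08 and 29.8 scaled CPM in Car-1, 9.50 and 21.9 in MDST8 and 21.8 and 25.1 in Hutu80. Of the list, miR-375-3p alone lay above the other 4 libraries. It was called higher than MDST8 (log2 difference 1.62 ± 0.32 SE, adjusted p = 0.000288). Against Hutu80 alone it was not called (0.48 ± 0.32 SE, adjusted p = 0.389).

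The cells grew with bovine serum, and blood miRNAs were counted in all 6 libraries. Of 8 tested blood-cell miRNAs, 0 were called against the mean by edgeR, DESeq2 or limma-voom, 1 had an unadjusted p below 0.05, and the median log2 difference was 0.64. A miRNA that was not called is not shown to be equal in the lines. Their summed level was 3949 and 4580 scaled CPM in Car-1, 2279 and 1825 in MDST8 and 4477 and 3596 in Hutu80, so MDST8 was low and Car-1 overlapped Hutu80. miR-486-5p, from red blood cells, held most of it, with 2793 and 3187 scaled CPM in Car-1, 1482 and 1155 in MDST8 and 3257 and 2433 in Hutu80. It was called higher than the mean in 5 other settings, with adjusted p of 0.00413 when libraries were scaled by totals alone and 0.0417 with a replicate block. The liver miRNA miR-122-5p had 56.6 and 64.6 scaled CPM in Car-1, 22.2 and 9.39 in MDST8 and 32.7 and 33.4 in Hutu80 (adjusted p = 0.199). The part of serum in the differences was not tested.

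One muscle miRNA was higher in Car-1. miR-1-3p had 206 and 378 scaled CPM in Car-1, 50.7 and 34.4 in MDST8 and 76.2 and 117 in Hutu80. Its log2 difference was 2.16 ± 0.45 (SE, adjusted p = 0.000625), and Car-1 did not overlap either line. Against Hutu80 alone it was not called (log2 difference 1.57 ± 0.56 SE, adjusted p = 0.0545). The other muscle miRNAs were nearly absent: miR-133a-3p had 1 count in each Car-1 library, 0 and 7 in MDST8 and 1 in each Hutu80 library, and miR-206 had 1 count in all 6 libraries together. Stromal miR-143-3p had 311 and 204 scaled CPM in Car-1, 263 and 260 in MDST8 and 272 and 276 in Hutu80, with no separation. The 2 tested members of the stroma and muscle list thus gave 1 higher and 0 lower call, too few to set against the 13.8% higher over all tested miRNAs.

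The miRNAs lower in Car-1 vesicles had smaller differences but included some of the most abundant. miR-137-3p, a miRNA of neurons, had the largest difference by the naming rule, with 16.2 and 9.95 scaled CPM in Car-1, 139 and 78.3 in MDST8 and 468 and 318 in Hutu80. The Car-1 values came from 4 and 2 counts, and the log2 difference was -3.91 ± 0.79 (SE, adjusted p = 0.000537). Its hairpin lies at chr1:98046070-98046171 on the minus strand, in an exon of MIR137HG. miR-2682-5p from the same locus had 8.08 and 4.97 scaled CPM in Car-1, 0 and 0 in MDST8 and 185 and 167 in Hutu80, and so differed from Hutu80 alone (log2 difference -4.62 ± 1.19 SE, adjusted p = 0.00594). The other 4 tested neural markers were not called against the mean in the main fit, and the list's median was -0.61. Of these, miR-128-1-5p went the other way and was called higher in some alternative settings. Among them were limma-voom (log2 difference 1.78, adjusted p = 0.0272) and edgeR with scaling by totals alone (2.13, adjusted p = 0.0104). miR-9-5p had 590 and 428 scaled CPM in Car-1, 978 and 729 in MDST8 and 784 and 878 in Hutu80.

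miR-31-5p, often raised in colorectal tumours, had 234 and 219 scaled CPM in Car-1, 1694 and 1581 in MDST8 and 425 and 652 in Hutu80. It was lower in Car-1 by a log2 difference of -2.05 ± 0.36 (SE, adjusted p = 0.000152), and was called lower against each line. Its hairpin is in an intron of MIR31HG (chr9:21512115-21512185, minus strand). miR-31-3p had 4.04 and 29.8 scaled CPM in Car-1, 228 and 182 in MDST8 and 10.9 and 58.5 in Hutu80, and missed the threshold against the mean (adjusted p = 0.056).

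The miR-183, miR-96 and miR-182 cluster, known from sensory cells and raised in many carcinomas, was lower in Car-1 than in each line. miR-182-5p had 13364 and 16474 scaled CPM in Car-1, 50959 and 43664 in MDST8 and 36325 and 35420 in Hutu80. The Car-1 libraries were below the other 4 by a wide gap, with a log2 difference of -1.46 ± 0.26 (SE, adjusted p = 0.000163). miR-183-5p had 6743 and 8066 scaled CPM in Car-1, 17807 and 15286 in MDST8 and 17667 and 14784 in Hutu80, and its log2 difference was -1.14 ± 0.25 against the mean, -1.16 ± 0.28 against MDST8 and -1.13 ± 0.28 against Hutu80. The scarce miR-96-5p had 16.2 and 9.95 scaled CPM in Car-1, 82.3 and 31.3 in MDST8 and 43.6 and 8.36 in Hutu80 and was not called (adjusted p = 0.328). Of the 3 tested, 2 were lower and 0 higher, too few to set against the 11.6% lower over all tested miRNAs. The cluster took 2.88% and 3.59% of the Car-1 counts, against 6.40% and 6.14% in MDST8 and 6.91% and 5.97% in Hutu80.

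**Figure D4:**
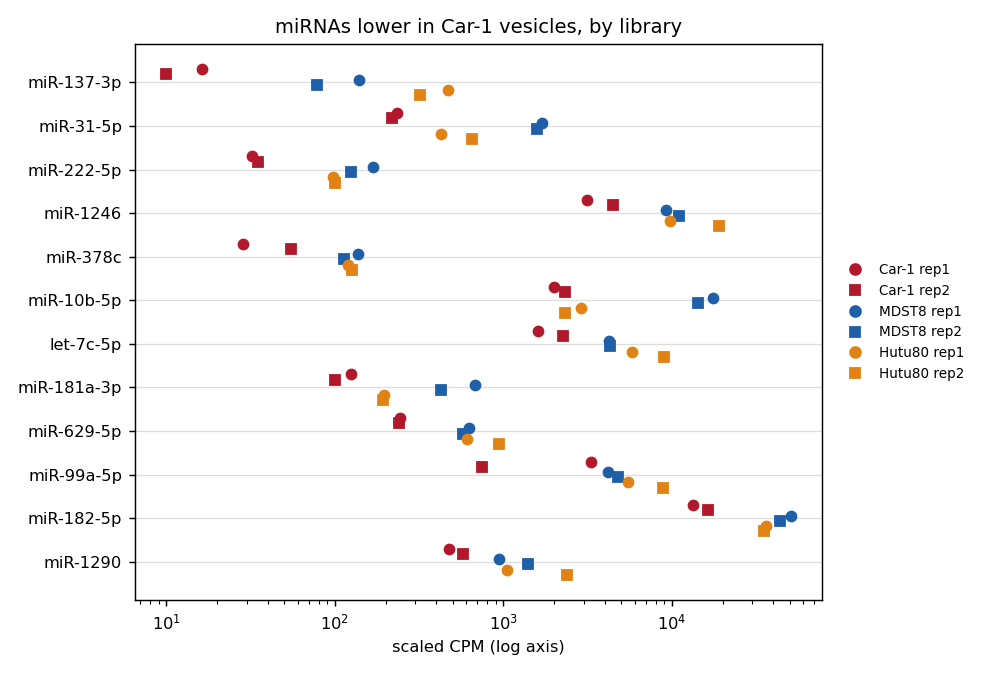
Scaled CPM (horizontal, log axis) in each library for the 12 miRNAs with the largest difference among those lower in Car-1 vesicles, with at least 100 scaled CPM in the mean of MDST8 and Hutu80 and no overlap with Car-1. Circles are replicate 1 and squares replicate 2. Both Car-1 points lie to the left in every row, with miR-10b-5p close to Hutu80 and the 2 Car-1 points of miR-99a-5p far apart.

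The miR-30 family had 5 of its 9 tested members lower in Car-1 and 0 higher, with a median log2 difference of -0.95. Against Hutu80 alone 7 were lower and 1 higher, and against MDST8 alone 2 were lower and 1 higher. Over all tested miRNAs, 11.6% were lower than the mean, 9.75% lower than Hutu80 and 19.2% lower than MDST8. The 2 of 9 lower than MDST8 were thus near the share over all tested miRNAs. The 1 higher than in MDST8 was miR-30c-2-3p, whose hairpin lies in the same host gene as that of miR-30a. It had 1637 and 781 scaled CPM in Car-1, 317 and 363 in MDST8 and 2560 and 3152 in Hutu80. Its log2 difference was 1.83 ± 0.38 against MDST8 and 0.30 ± 0.32 against the mean (SE, adjusted p = 0.000493 and 0.535). miR-30a-5p, the most abundant, had 35625 and 14132 scaled CPM in Car-1, 49816 and 38968 in MDST8 and 94163 and 88994 in Hutu80. The Car-1 libraries were below the other 4 but 2.52-fold apart, and the log2 difference was -1.36 ± 0.31 (SE, adjusted p = 0.00185). miR-30a-3p, the other arm of the hairpin, had 9370 and 6494 scaled CPM in Car-1, 5518 and 4273 in MDST8 and 41554 and 44886 in Hutu80. It lay between the lines. Its log2 difference was -0.87 ± 0.26 against the mean and -2.44 ± 0.30 against Hutu80, and it was 0.70 ± 0.29 against MDST8, which was not called (SE, adjusted p = 0.0146, 1.77e-06 and 0.0546).

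miR-30e and miR-30c-1 lie next to each other in an intron of NFYC on chromosome 1. miR-30e-3p had 1750 and 1522 scaled CPM in Car-1, 2909 and 2533 in MDST8 and 6383 and 5092 in Hutu80, a log2 difference of -1.27 ± 0.27 (SE, adjusted p = 0.00076). miR-30c-5p, which a second hairpin on chromosome 6 also encodes, had 2854 and 1492 scaled CPM in Car-1, 3134 and 2893 in MDST8 and 5424 and 6288 in Hutu80, a log2 difference of -0.95 ± 0.29 (SE, adjusted p = 0.0161). The calls of miR-30a-3p, miR-30c-5p and miR-30e-5p were each lost without Car-1 replicate 2, with adjusted p of 0.0732, 0.197 and 0.0732, and when libraries were scaled by totals alone, with 0.157, 0.157 and 0.0615. miR-30d-5p did not go with them, at 24876 and 20999 scaled CPM in Car-1, 21416 and 21951 in MDST8 and 11458 and 11029 in Hutu80. It was higher than in Hutu80 (log2 difference 1.03 ± 0.26 SE, adjusted p = 0.00557) and not called against the mean, although 6 other settings called it higher there, among them DESeq2 (adjusted p = 0.037) and scaling by totals alone (0.000984).

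let-7c-5p and miR-99a-5p are neighbours in an intron of MIR99AHG on chromosome 21. Both were lower in Car-1, 2 of the 10 tested miRNAs of the miR-99/100, let-7 and miR-125 clusters. Over all tested miRNAs 11.6% were lower. miR-125b-2-3p from the same host gene was not called (log2 difference -0.44 ± 0.49 SE, adjusted p = 0.557). It had 247 and 278 scaled CPM in Car-1, 199 and 272 in MDST8 and 316 and 761 in Hutu80. let-7c-5p had 1597 and 2248 scaled CPM in Car-1, 4226 and 4267 in MDST8 and 5762 and 8922 in Hutu80, with a log2 difference of -1.54 ± 0.30 (SE, adjusted p = 0.000387). miR-99a-5p had 3331 and 746 scaled CPM in Car-1, 4182 and 4777 in MDST8 and 5457 and 8830 in Hutu80. Its log2 difference of -1.47 ± 0.45 (SE, adjusted p = 0.0237) came from Car-1 libraries 4.47-fold apart and was lost without Car-1 replicate 2 (adjusted p = 0.0651) and with scaling by totals alone (0.114). Relatives close in sequence behaved otherwise: miR-100-5p had 25281 and 21805 scaled CPM in Car-1, 57971 and 68508 in MDST8 and 9640 and 10268 in Hutu80, between the lines. miR-125b-5p also lay between them, with 3683 and 3675 scaled CPM in Car-1, 5322 and 7876 in MDST8 and 795 and 1940 in Hutu80. let-7 and miR-99/100 reads differ by few bases, so these counts are uncertain where reads were split between relatives.

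Further miRNAs lay below both lines. miR-629-5p had 243 and 239 scaled CPM in Car-1, 620 and 576 in MDST8 and 610 and 945 in Hutu80 (log2 difference -1.50 ± 0.35 SE, adjusted p = 0.00198). miR-1246 had 3121 and 4485 scaled CPM in Car-1, 9228 and 10982 in MDST8 and 9792 and 18914 in Hutu80 (log2 difference -1.66 ± 0.30 SE, adjusted p = 0.00018), and its sequence also occurs in annotated U2 small nuclear RNA genes, so its reads may not be miRNA. miR-1290 had 477 and 577 scaled CPM in Car-1, 937 and 1390 in MDST8 and 1046 and 2400 in Hutu80. All 3 were called lower against each line as well. miR-218-5p, named after its values were seen, had 1593 and 1024 scaled CPM in Car-1, 3492 and 2188 in MDST8 and 4466 and 3805 in Hutu80 (log2 difference -1.38 ± 0.33 SE, adjusted p = 0.0023). miR-148b-3p, chosen likewise, had 1374 and 955 scaled CPM in Car-1, 3191 and 2893 in MDST8 and 2146 and 2149 in Hutu80, and its call was lost with scaling by totals alone (adjusted p = 0.0544).

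Members of the miR-378 family were lower in Car-1 in 6 cases, but their sequences are nearly the same and their counts are not independent; the family was singled out after its values were seen. The most abundant, miR-378a-3p, had 1322 and 1686 scaled CPM in Car-1, 4745 and 4721 in MDST8 and 2897 and 3972 in Hutu80, with a log2 difference of -1.42 ± 0.27 (SE, adjusted p = 0.00032). miR-378c had 28.3 and 54.7 scaled CPM in Car-1, 136 and 113 in MDST8 and 120 and 125 in Hutu80, and its call (adjusted p = 0.045) was lost in 12 of 16 alternative settings. miR-378d, miR-378e, miR-378f and miR-378g had log2 differences between -3.15 and -2.36 from at most 19.9 scaled CPM in a Car-1 library. Other miRNAs named by rule were also unsteady. miR-222-5p had 32.3 and 34.8 scaled CPM in Car-1, 168 and 125 in MDST8 and 98.0 and 100 in Hutu80 and was lost in 11 of the 16. miR-181a-3p had 125 and 99.5 in Car-1, 677 and 429 in MDST8 and 196 and 192 in Hutu80 and was lost in 6.

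A number of lower calls came from high levels in MDST8 with Car-1 near Hutu80. miR-146a-5p, a feedback inhibitor of NF-kB signalling, had 2122 and 2606 scaled CPM in Car-1, 28311 and 29201 in MDST8 and 2070 and 1798 in Hutu80. Its log2 difference was -1.65 ± 0.29 against the mean, -3.60 ± 0.33 against MDST8 and 0.29 ± 0.31 against Hutu80, and both Car-1 libraries were above those of Hutu80. miR-29a-3p, a repressor of collagen genes, had 1754 and 1353 scaled CPM in Car-1, 16408 and 16516 in MDST8 and 1187 and 1120 in Hutu80. miR-10b-5p, encoded among the HOXD genes, had 1989 and 2327 scaled CPM in Car-1, 17608 and 14247 in MDST8 and 2897 and 2333 in Hutu80, where the nearest Hutu80 value was barely above Car-1. The p53-induced miR-34a-5p had 441 and 209 in Car-1, 3242 and 2166 in MDST8 and 392 and 635 in Hutu80. miR-181a-5p, named after its values were seen, had 3246 and 2268 in Car-1, 17760 and 15587 in MDST8 and 2843 and 3019 in Hutu80. None of these 5 was called different from Hutu80. miR-181b-5p and miR-1269b were called lower on the same pattern, with log2 differences of -0.76 and -2.70 against the mean, -1.64 and -4.62 against MDST8. The call of miR-181b-5p against the mean was lost in 9 of 16 settings, with adjusted p up to 0.562.

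The list of mesenchymal and inflammation-linked miRNAs gave 5 lower and 0 higher calls among 14 tested, with a median of -0.56, and against MDST8 alone it gave 9 lower and 1 higher. Over all tested miRNAs 11.6% were lower than the mean and 19.2% lower than MDST8. The 5 were miR-146a-5p, miR-31-5p, miR-221-3p, miR-221-5p and miR-222-5p. miR-221-3p, a repressor of the cell-cycle inhibitor gene CDKN1B, had 9245 and 8772 scaled CPM in Car-1, 27802 and 29017 in MDST8 and 7211 and 8002 in Hutu80, and its call (log2 difference -0.70 ± 0.23 SE, adjusted p = 0.0237) was lost in 9 of 16 settings. The member that was higher than in MDST8 was miR-155-5p, linked to immune activation, with 9176 and 12163 scaled CPM in Car-1, 5730 and 3675 in MDST8 and 9999 and 8077 in Hutu80. Car-1 overlapped Hutu80 for it, and it was not called against the mean (adjusted p = 0.059).

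Calls that came from Hutu80 were fewer. miR-1262 had 28.3 and 64.6 scaled CPM in Car-1, 38.0 and 40.7 in MDST8 and 1253 and 2124 in Hutu80, a log2 difference of -2.49 ± 0.50 against the mean (SE, adjusted p = 0.00047) and 0.21 against MDST8 (adjusted p = 0.78). miR-532-5p, the leading miRNA of an X-linked cluster within CLCN5, had 1294 and 726 scaled CPM in Car-1, 1121 and 848 in MDST8 and 3093 and 3253 in Hutu80. The cluster's median was 0.07. Of its 8 tested members, beside 11.6% lower over all tested miRNAs, miR-532-5p gave the only call (log2 difference -0.80 ± 0.29 SE, adjusted p = 0.0413). That call was lost in 7 of 16 settings, among them the fit without Car-1 replicate 2 (adjusted p = 0.352) and scaling by totals alone (0.3).

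In the remaining lists the counts were small, beside 13.8% higher and 11.6% lower over all tested miRNAs. Of 6 tested HOX-embedded miRNAs, 2 were higher and 1 lower, with a median of -0.52. Those higher were miR-196b-5p, with 400 and 457 scaled CPM in Car-1, 155 and 135 in MDST8 and 294 and 276 in Hutu80, and the scarcer miR-615-3p. The call of miR-196b-5p was lost without Car-1 replicate 2 (adjusted p = 0.223) and that of miR-615-3p in 7 of 16 settings. miR-10a-5p, one of the most abundant miRNAs of the libraries, had 56253 and 70984 scaled CPM in Car-1, 103153 and 81841 in MDST8 and 89904 and 85390 in Hutu80. It lay below the other 4 in Car-1 but was not called (log2 difference -0.50 ± 0.23 SE, adjusted p = 0.114).

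Of 10 tested let-7 miRNAs outside the miR-99/100 clusters, 0 were higher and 1, let-7i-5p, was lower, with a median of 0.18. let-7i-5p had 5227 and 5271 scaled CPM in Car-1, 16414 and 15336 in MDST8 and 5054 and 4423 in Hutu80, above Hutu80 in both Car-1 libraries, and its call was lost in 9 of 16 settings (adjusted p up to 0.55). Of 21 tested miRNAs of miR-17-92 and its paralogs, 3 were higher and 0 lower with a median of 0.25, a share near that over all tested miRNAs. The 3 were miR-92a-1-5p, miR-92a-2-5p and miR-363-5p, of which the last was lost in 5 of 15 settings. Of 7 tested miRNAs of the miR-193b and miR-365 group, 2 were higher (miR-365a-5p and miR-193b-5p) and 1 lower (miR-193a-5p), with a median of -0.20. The miR-29 family had 1 of 4 lower and 0 higher (median -0.86), and the miR-34 family 1 of 2 lower and 0 higher (median -0.40). With edgeR 0 were called among the 2 tested of miR-224 and miR-452 (median 0.60), the 3 of the X-linked miR-506 to miR-514 cluster (median 1.32), the 6 of the imprinted chromosome 14 cluster (median 0.56) and the 1 of liver and serum (1.39). Of these, 1 miRNA of the chromosome 14 cluster had an unadjusted p below 0.05. DESeq2 called 0 in all 4 lists, and limma-voom called 1, in the chromosome 14 cluster.

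The 10 leading miRNAs of a library held 58.9% and 59.8% of the Car-1 counts. miR-21-5p, raised in most carcinomas, led with 129407 and 66285 scaled CPM in Car-1, 216078 and 146717 in MDST8 and 57304 and 57395 in Hutu80. It lay between the lines and was not called against their mean (log2 difference -0.06 ± 0.27 SE, adjusted p = 0.914). let-7a-5p had 31595 and 62556 scaled CPM in Car-1, 56103 and 56672 in MDST8 and 35846 and 39584 in Hutu80, and let-7f-5p had 36765 and 58065 in Car-1, 70159 and 48983 in MDST8 and 47196 and 51115 in Hutu80. Both had log2 differences near 0 and Car-1 libraries that spanned those of Hutu80. let-7b-5p (log2 difference 0.41 ± 0.26 SE) was not called in the main fit either. Some other settings called it higher, among them edgeR with scaling by totals alone (adjusted p = 0.00828) and without a filter (0.0113). miR-92a-3p had 40415 and 33938 scaled CPM in Car-1, 16690 and 16482 in MDST8 and 58763 and 71133 in Hutu80, again between the lines. It was called higher than the mean by edgeR with scaling by totals alone (adjusted p = 0.0361) and by limma-trend on the deposited log2 values (0.0349). Of the 10 most abundant by mean share, miR-30a-5p and miR-200c-3p were called in the main fit and the other 8 were not.

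The distance between the 2 Car-1 libraries was larger than that in MDST8 or Hutu80 at high levels, but not by every measure. Over miRNAs with a mean of at least 500 scaled CPM, the SD of the log2 ratio of replicate 1 to replicate 2 was 0.688 in Car-1 (98 miRNAs), 0.369 in MDST8 (93) and 0.478 in Hutu80 (100). In Car-1, 10 of these miRNAs differed by 2-fold or more, all higher in replicate 1. In MDST8 1 did, and in Hutu80 9 did, all higher in replicate 2. Over the 201 miRNAs with at least 100 scaled CPM in the higher Car-1 library, 24 were 2-fold or more higher in replicate 1 and 7 in replicate 2. By the same rule 16 and 7 of 189 were in MDST8 and 14 and 25 of 215 in Hutu80, so Hutu80 had more than Car-1. Spearman's rho between the libraries of a line was 0.941 in Car-1, 0.952 in MDST8 and 0.935 in Hutu80. With 1 library against 1 these ratios have no replicate check, and their 95% intervals (conditional binomial, exact) cover counting error only.

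Members of the miR-106a-363 cluster on chromosome X led the miRNAs higher in replicate 1. miR-106a-5p had 331 scaled CPM in replicate 1 and 44.8 in replicate 2, a ratio of 7.41 (interval 3.72 to 16.8). miR-20b-5p had 1835 and 259, a ratio of 7.10 (5.32 to 9.65), and miR-363-3p had 2672 and 378, a ratio of 7.07 (5.57 to 9.09). For miR-363-3p, replicate 1 was nearer to Hutu80, with 5370 and 6990 scaled CPM, and replicate 2 lay within the range of MDST8, with 431 and 160. A pair of miRNAs of the same cluster did not follow: miR-363-5p, from the other arm of the miR-363 hairpin, had 117 scaled CPM in replicate 1 and 94.5 in replicate 2, and miR-92a-2-5p had 1047 and 990.

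For other miRNAs that differed between the libraries, some neighbours did as well and some did not; these neighbours were looked up after the values were seen. In the host gene of miR-217, 3 miRNAs were higher in replicate 1: miR-217-5p had 26 counts in replicate 1 and 5 in replicate 2, miR-216b-5p 40 and 9, and miR-216a-5p 20 and 0. The hypoxia-induced miR-210-3p had 271 scaled CPM in replicate 1 and 54.7 in replicate 2, a ratio of 4.95 (2.60 to 10.4). miR-99a-5p had 3331 and 746, a ratio of 4.47 (3.75 to 5.35), whereas its neighbour let-7c-5p was lower in replicate 1, at 1597 against 2248. miR-20b-3p had a ratio of 4.53. In the opposite direction, miR-23b-5p had 20.2 scaled CPM in replicate 1 and 134 in replicate 2, a ratio of replicate 2 to replicate 1 of 6.64 (2.52 to 22.1), whereas miR-23b-3p of the same hairpin had 3630 and 5211. miR-3187-3p had a ratio of replicate 2 to replicate 1 of 5.95, miR-3960 of 5.41, miR-3178 of 3.53, miR-200b-5p of 2.48 and miR-1301-3p of 2.37. These last miRNAs rested on 5 to 131 counts per library.

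**Figure D5:**
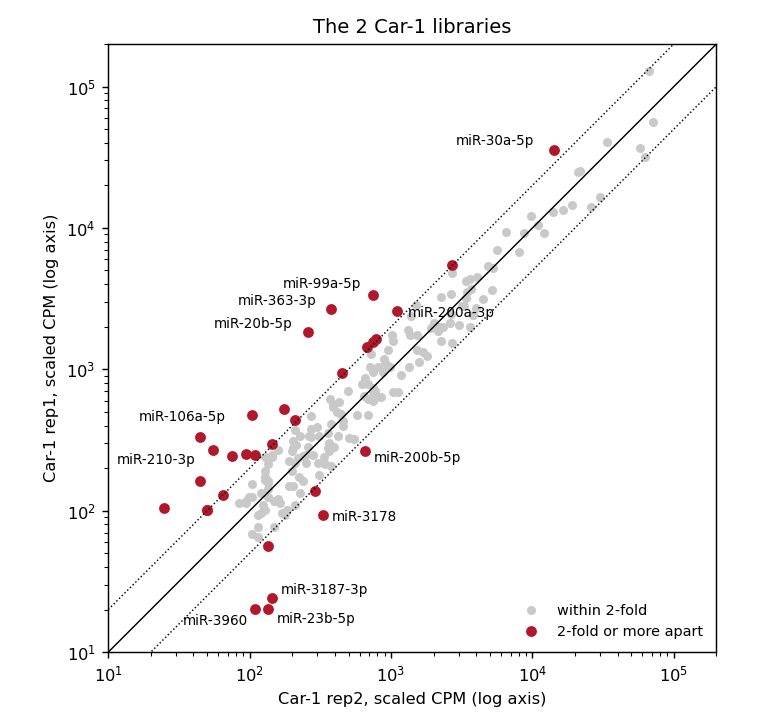
Scaled CPM in Car-1 replicate 1 (vertical) against Car-1 replicate 2 (horizontal), both log axes, for the 201 miRNAs with at least 100 scaled CPM in the higher library. Dotted lines mark 2-fold, and red points lie on or beyond it: 24 above, led by miR-106a-5p, miR-20b-5p and miR-363-3p, and 7 below.

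Leaving out a Car-1 library changed many calls. Leaving out any library of MDST8 or Hutu80 lost calls as well, though fewer. Without replicate 1, 23 of 80 calls against the mean were lost, and without replicate 2, 28 of 81. The losses included miRNAs whose Car-1 libraries were close, such as miR-196b-5p. miR-20b-5p had a log2 difference of 0.57 ± 0.55 against the mean (SE, adjusted p = 0.513) with both libraries, and without Car-1 replicate 1 it was -1.37 (adjusted p = 0.0338). miR-363-3p had 0.18 ± 0.71 (SE, adjusted p = 0.9) with both and -1.74 (adjusted p = 0.00228) without replicate 1. For the miR-200 family the 2 libraries gave the same order against the other lines in 6 of 7 members, and miR-205-5p remained above both lines in each library.

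Base composition was compared as a description. The median GC content was 52.2% over the 43 higher miRNAs with a sequence, 47.6% over 33 lower ones and 50.0% over the 286 tested miRNAs with a sequence. A GC content of 60% or more was found in 11 of the 43 higher and 0 of the 33 lower miRNAs, against 58 of the 286 tested (20.3%). The part of base composition in the differences was not tested.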

How the data were processed

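Small RNA libraries of vesicles from 6 cell lines, 2 per line, were used as deposited. The authors' main table gives raw counts, all whole numbers, for 1636 mature miRNAs. A second table deposited by the authors holds log2 values that equal log2(CPM + 1) of those counts. Per the submitters' processing notes, reads were placed on hg38. Which aligner, annotation and counter were used, and whether molecular identifiers were collapsed, is not given in the sources used here.

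Counts were fitted in R 4.3.3 with edgeR 4.0.16 over all 12 libraries with 1 mean per line (filterByExpr by line, TMM, robust quasi-likelihood F-test). The main contrast was Car-1 minus the mean of MDST8 and Hutu80, and Car-1 minus each line followed. P-values were adjusted by Benjamini-Hochberg over the 318 tested miRNAs, which held 99.7% of counts. SE is the absolute log2 difference divided by the square root of F. A single count was worth 2.94 to 13.9 CPM in the 6 libraries. limma 3.58.1, DESeq2 1.42.0, other scalings and filters and leaving out each library were alternatives. The procedure was tested on simulated data.

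Named miRNAs were, per direction, the 12 largest called differences with at least 100 scaled CPM in the higher group and no overlap of Car-1 with the other lines (27 higher and 22 lower were eligible), the 10 most abundant in Car-1, up to 4 per list of 22 lists, and the 6 per direction with the largest ratio between the Car-1 libraries. The comparison and the lists were chosen with earlier results of these data known. Overlaps with genes come from GENCODE 29. Replicate numbers did not pair the samples.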

Additional observations from a re-analysis of the deposited data

How the results depend on the processing

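Of the 44 higher and 37 lower calls against the mean, 24 and 20 held in every setting that gave an adjusted p, of 16. Scaling by library totals alone gave 77 higher and 24 lower against the mean, 116 and 38 against MDST8. Without a filter, 23 were lower than the mean and 12 lower than Hutu80. limma-trend on the deposited log2 values gave 110 higher and 33 lower against MDST8. The cause was not tested, except that no filter tests more miRNAs. Leaving out 1 library at a time gave 31 to 46 higher and 29 to 32 lower than the mean, 47 to 61 higher and 46 to 72 lower than MDST8, and 18 to 31 higher and 16 to 31 lower than Hutu80. Without Car-1 replicate 1, miR-20b-5p reversed to -1.37 and miR-363-3p to -1.74, and without Car-1 replicate 2 they were 1.22 and 0.84; the single library left to Car-1 was then taken to vary like the other lines. DESeq2 gave no adjusted p for 37 miRNAs, 5 of them among the calls. The SD between libraries was 0.740 in Car-1, 0.525 in MDST8 and 0.656 in Hutu80 at a minimum of 100 CPM, and 0.614, 0.353 and 0.378 at 2000 CPM. Replicate numbers did not pair the samples (correlations of -0.24 to 0.26 over 15 pairs of lines), and a replicate block gave 51 higher and 39 lower, with 79 of the 81 calls kept. At the depth of Hutu80, 3 counts are 25.1 to 32.7 scaled CPM, so a count of 0 in a Hutu80 library allows a level up to there. The smallest difference that could be detected is not reported here.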
